A study of Mus musculus with 25 samples.

Results

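The S100 proteins are small calcium-binding proteins of vertebrates, and 10 of their genes were followed here across the epididymal and inguinal white fat of the mouse. The members were taken by gene symbol from the count files, as 10 of 54752 gene rows, and grouped by where they are best known. S100a8 and S100a9 formed the myeloid group, S100a4, S100a6, S100a10 and S100a11 the stromal group, and S100b, S100a1, S100a13 and S100a16 the adipocyte and broadly expressed group. The other 7 S100 family genes of the files were not members. RNA was sequenced from epididymal (eWAT) and inguinal (iWAT) white adipose tissue of male C57BL/6N mice as 25 libraries, 14 from eWAT and 11 from iWAT. In each depot there were wild type (WT) mice on normal diet (ND, n = 4 in eWAT and n = 3 in iWAT), WT mice on high-fat diet (HFD, n = 5 and n = 5) and HFD-fed Acod1-/- mice (n = 5 and n = 3). Fat supplied 60% of the calories of the HFD, which was fed from 5 weeks of age for 16 weeks, and the labels of iWAT Acod1-/- libraries 2 and 3 state 17 and 18 weeks. The labels of the ND-fed libraries also state 16 weeks and give no starting age. Per the study's methods both diets began at 5 weeks of age. The knockout was the whole-body C57BL/6N-Acod1em1(IMPC)J/J line, bred so that littermates were compared, and ND-fed Acod1-/- mice were not analysed here. Diet below means HFD-fed against ND-fed WT mice, and genotype means HFD-fed Acod1-/- against HFD-fed WT mice, so the HFD-fed WT libraries enter both comparisons.

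S100 proteins are dimers with EF-hand loops that change shape on binding calcium and then engage other proteins. Inside cells they act on the cytoskeleton, membranes and calcium handling, and several are also released and bind receptors such as TLR4 and RAGE (gene Ager). S100A8 and S100A9 form calprotectin, an alarmin stored in neutrophils and monocytes, while in adipose tissue other members are known from fibroblasts, macrophages, Schwann cells and adipocytes themselves. Tissue was sequenced whole, so fewer cells of a type and less RNA per cell cannot be told apart in any value below.

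Depth was 31.41 M to 52.34 M reads counted on genes per library, with a median of 42.09 M. Levels of 1 gene across libraries are given as CPM, counts scaled to library size after TMM normalization, and levels of different genes as TPM, which also divides by transcript length. An adjusted p is that of edgeR's quasi-likelihood test with Benjamini-Hochberg adjustment over all genes tested, calls were made where it was under 0.1, and a difference is a fitted log2 fold change with its standard error (SE). The column headers number the libraries in 2 series. All ND-fed libraries and the library numbered last in each HFD-fed group were in the second, and the other HFD-fed libraries in the first, so diet and series largely coincide, and the within-series values below cover genotype only. A series term in a fit is therefore estimated from the HFD-fed groups alone, through their last-numbered libraries. In iWAT the first series holds 2 Acod1-/- libraries, and library 3, in the second, is also the one labelled 18 weeks. The deleted gene gave at most 9 reads in any library and 0 in 13 of 25, and it therefore did not check the genotype labels. Adipoq, the adipocyte hormone adiponectin, had at least 44435 reads in every library. In iWAT of ND-fed mice the summed CPM of 6 lymphocyte markers was 476.2 to 740.7, against at most 55.0 in the other iWAT libraries, and iWAT ND library 1 had a summed skeletal muscle level of 7125 CPM.

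Of the 10 genes, 9 lie on chromosome 3 (GRCm38) and S100b on chromosome 10. From S100a1 to S100a9, 7 members spanned 184.7 kb, and S100a11 and S100a10 lay 2.82 Mb further on within 44.16 kb. S100a1 (ENSMUSG00000044080, chr3:90511034-90514392, minus strand) and S100a13 (ENSMUSG00000042312, chr3:90514435-90524581, plus strand) are head to head, with gene starts 43 bases apart. S100a4 (ENSMUSG00000001020, chr3:90603771-90606045, plus strand) shares 302 of its 584 exonic bases (51.7%) with Gm42674, a gene model on the same strand that had 0 reads in all 25 libraries. A counter that discards reads lying on both genes would lose those of the shared exons, which touches S100a4's level but is the same for all groups. S100b (ENSMUSG00000033208, chr10:76253853-76261159, plus strand) lies within the span of Dip2a on the minus strand and shares 0 exonic bases with it. The processed pseudogene S100a11-ps had at most 6 reads in a library, against at least 10452 for S100a11 itself.

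The RefSeq promoter windows (GRCm38.p6, 250 bases before to 50 bases after the start) of 4 members are shown: S100a8 and S100a4, with the largest diet changes in eWAT, S100a9, the partner of S100a8, and S100a1, which moved the other way. A window was listed for 9 members and not for S100a10. Capitals mark exact matches on either strand to any of 4 motifs, and where matches adjoin the capitals run together. The TATA box was searched as TATAAA. The site of the C/EBP factors was searched as TTGCNNAA, and that of the AP-1 factors as TGANTCA. The core of the site of PU.1, a myeloid factor, was searched as GAGGAA.
The windows are chr3:90668821-90669120 (plus strand), chr3:90695672-90695971 (minus strand), chr3:90603520-90603819 (plus strand) and chr3:90514281-90514580 (minus strand).
S100a8: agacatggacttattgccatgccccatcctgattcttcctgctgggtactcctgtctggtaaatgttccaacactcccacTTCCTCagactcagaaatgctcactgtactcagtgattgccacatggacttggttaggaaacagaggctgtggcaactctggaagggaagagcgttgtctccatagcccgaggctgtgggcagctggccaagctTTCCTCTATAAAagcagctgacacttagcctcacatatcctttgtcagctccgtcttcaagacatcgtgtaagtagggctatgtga
S100a9: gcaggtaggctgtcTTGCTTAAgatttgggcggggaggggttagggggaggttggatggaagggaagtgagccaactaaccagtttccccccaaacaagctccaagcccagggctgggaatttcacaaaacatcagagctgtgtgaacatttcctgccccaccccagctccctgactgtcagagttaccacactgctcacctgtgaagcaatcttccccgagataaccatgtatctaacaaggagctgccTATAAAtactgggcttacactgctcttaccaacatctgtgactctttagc
S100a4: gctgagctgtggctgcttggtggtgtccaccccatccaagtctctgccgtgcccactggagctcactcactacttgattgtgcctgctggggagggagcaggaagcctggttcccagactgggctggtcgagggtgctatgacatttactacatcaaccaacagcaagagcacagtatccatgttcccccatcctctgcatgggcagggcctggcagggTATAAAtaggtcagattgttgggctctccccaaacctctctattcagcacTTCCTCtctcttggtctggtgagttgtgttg
S100a1: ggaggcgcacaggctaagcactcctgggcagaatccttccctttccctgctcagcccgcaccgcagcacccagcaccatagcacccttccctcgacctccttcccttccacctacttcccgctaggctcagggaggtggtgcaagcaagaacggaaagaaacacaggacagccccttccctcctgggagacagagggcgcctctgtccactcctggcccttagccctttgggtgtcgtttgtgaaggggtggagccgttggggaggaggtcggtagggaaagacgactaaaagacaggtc
TATAAA was found in the windows of 3 of the 9 members, S100a8, S100a9 and S100a4, and in 13.6% of all 32851 promoter windows. It began 30 bases before the annotated start in S100a8, 31 bases before it in S100a4 and at the annotated start in S100a9. The S100a8 window had 2 GAGGAA matches, 170 and 36 bases before the start, and this motif was in 28.3% of all windows and in those of 4 members. TTGCNNAA, in 10.8% of all windows, was found only in S100a9 among the members. TGANTCA, in 7.81% of all windows, was found in S100a11 and S100a16. S100a1 shares 204 bases of its window with that of S100a13 on the other strand and held none of the 4 motifs.

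Per transcript length S100a11 was the most abundant member in all 6 groups, with 2866 ± 574.1 TPM (SD, n = 4) in ND-fed and 4934 ± 1041 TPM (n = 5) in HFD-fed WT eWAT. In iWAT it stood at 1462 ± 307.1 TPM (n = 3) and 4948 ± 375.4 TPM (n = 5). The range of its libraries did not overlap that of the next member in any group. In ND-fed mice S100a1 came second, at 888.1 ± 145.2 TPM in eWAT, where its range overlapped that of S100a10, and at 928.0 ± 165.4 TPM in iWAT, where it did not. In HFD-fed WT mice S100a1 stood in both depots below S100a11, S100a6 and S100a10, of which the last pair had overlapping ranges. In HFD-fed Acod1-/- mice S100a1 was second again, at 900.2 ± 359.6 TPM in eWAT and 905.5 ± 254.0 TPM in iWAT, with a range overlapping that of S100a10. S100a9 was last in every group, and S100a8, S100a4 and S100b filled the 3 places above it. The summed level of the 10 members was 5170 ± 815.4 TPM in ND-fed and 8060 ± 1129 TPM in HFD-fed WT eWAT, and 3393 ± 209.5 and 7800 ± 593.6 TPM in iWAT. The 4 stromal genes made up 54.57% to 79.61% of that sum in ND-fed mice and 83.55% to 88.39% in HFD-fed WT mice.

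**Figure D1:**
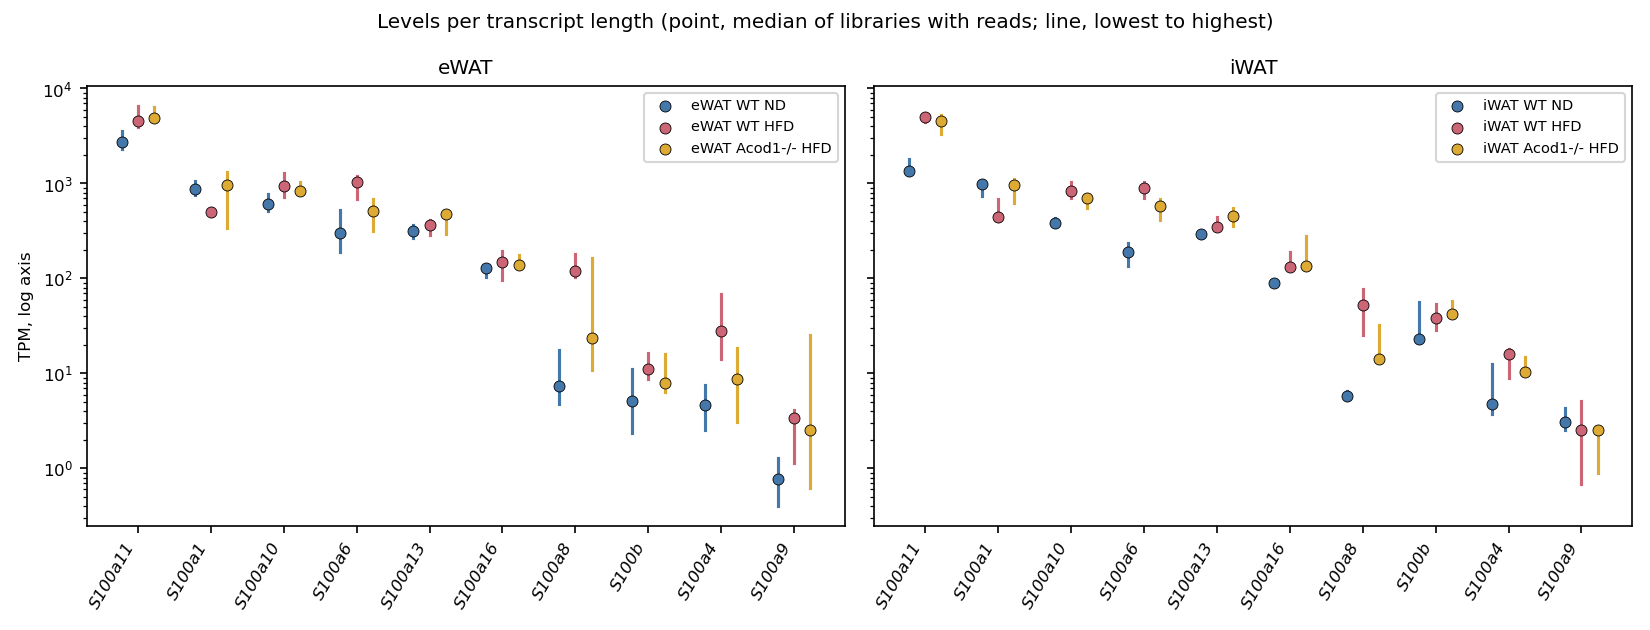
TPM (log axis) of the 10 members in eWAT (left) and iWAT (right), in order of their mean level; points are group medians over libraries with reads and lines run from the lowest to the highest library. S100a11 stands above every other member in all 6 groups, and S100a9 is lowest.

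On HFD most members rose in both depots. In eWAT 6 of the 9 members tested were higher, beside 24.8% of all genes, and 1 was lower, beside 26.9%. In iWAT 7 of 9 were higher, beside 25.9% of all genes, and 1 was lower, beside 24.2%. S100a8, S100a4, S100a6, S100a10 and S100a11 rose in both depots and S100a1 fell in both. The median log2 fold change of the members was 0.97 in eWAT and 1.19 in iWAT, against -0.04 and 0.00 over all genes tested. S100a9 had a mean under 1 CPM in both depots and was not tested in these fits. In Acod1-/- mice on HFD 2 members were lower in eWAT, beside 10.8% of all genes, and 1 was higher, beside 9.13%. In iWAT 0 of 9 members and 0.0% of all genes were called in either direction for genotype, while before adjustment 1062 positive and 1406 negative changes had a p under 0.05, and DESeq2 called 440 higher and 632 lower.

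**Figure D2:**
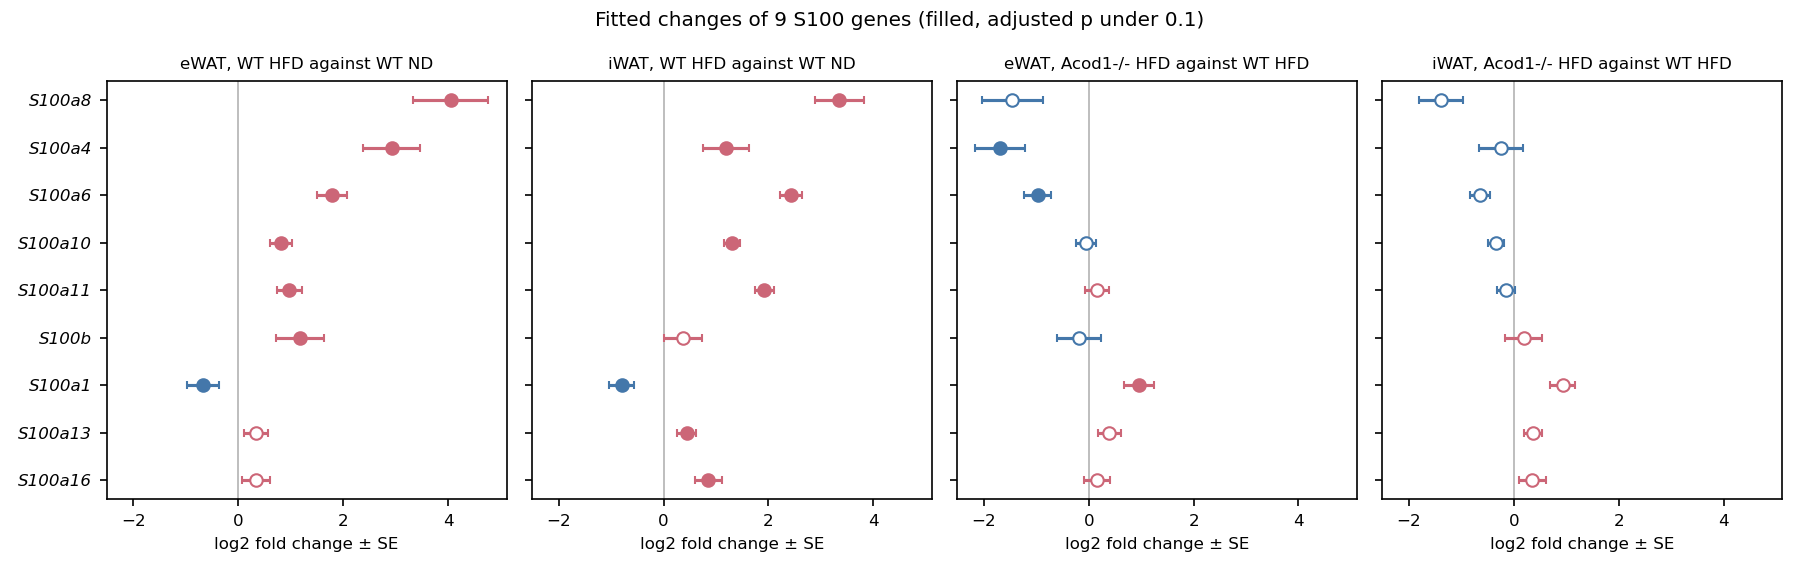
Fitted log2 fold changes (points) with SE (bars) of 9 members for diet and genotype in each depot; filled points have an adjusted p under 0.1. S100a8 has the largest diet change in both depots (4.05 and 3.36), and S100a1 is the only called member below 0 for diet.

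S100a8 (ENSMUSG00000056054, chr3:90668978-90670035, plus strand) encodes the calprotectin subunit that signals through TLR4. In eWAT of ND-fed mice it stood at 3.59, 1.19, 1.19 and 2.26 CPM, and in HFD-fed WT mice at 23.2, 34.8, 33.4, 50.6 and 28.9 CPM. The groups did not overlap, and the rise was 4.05 on the log2 scale (SE 0.72, adjusted p = 0.00107), or 16.6-fold. In iWAT the 3 ND-fed libraries were close together, at 1.36, 1.31 and 1.37 CPM, and the HFD-fed WT libraries were at 18.7, 20.8, 8.69, 13.6 and 5.96 CPM. These groups were also apart, with a rise of 3.36 (SE 0.47, adjusted p = 0.000419), or 10.2-fold. With the series as a term the rises were 5.54 in eWAT (adjusted p = 0.00201) and 3.36 in iWAT (adjusted p = 0.00461). In eWAT that term rests in part on Acod1-/- library 5, at 38.9 CPM, so the larger rise is no check on the series. The difference between the depots in this diet change was 0.72 (SE 0.83, adjusted p = 0.576).

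For genotype S100a8 split the eWAT knockouts. Libraries 1 to 4 of the Acod1-/- group were at 7.88, 6.49, 2.76 and 6.22 CPM, below every HFD-fed WT library, and library 5 was at 38.9 CPM, within the WT range. Over all 5 the log2 fold change was -1.46 (SE 0.58, adjusted p = 0.116), which was not called. Within the first series, which leaves out library 5 of each group, it was -2.62 (SE 0.34, adjusted p = 0.00193), and without Acod1-/- library 5 alone it was -2.56 (adjusted p = 0.00122). With the series as a term it was -2.08 (adjusted p = 0.0258), and DESeq2 gave -1.46 (adjusted p = 0.0414). In iWAT the 3 Acod1-/- libraries were at 3.76, 3.8 and 7.95 CPM, the last being the second-series library and overlapping the WT range. The iWAT change was -1.39 (SE 0.42, adjusted p = 0.162), and within the first series, with 2 Acod1-/- libraries, -2.02 (adjusted p = 0.0349). Library 3 differs from these 2 in both series and labelled weeks of HFD, which cannot be told apart. Without Acod1-/- library 3 it was -1.84 (adjusted p = 0.0408), and DESeq2 gave -1.37 (adjusted p = 0.0312).

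Macrophage RNA differed in the same libraries. The summed level of 10 macrophage markers, among them Adgre1, Cd68 and Trem2, was 471.8 to 829.8 CPM in ND-fed, 1206 to 4028 CPM in HFD-fed WT and 367.2 to 669.3 CPM in eWAT Acod1-/- libraries 1 to 4, and 1268 CPM in library 5. In eWAT 9 of these 10 markers were higher on HFD and 1 was lower, beside 24.8% and 26.9% of all genes. Their median log2 fold change was 2.45. In Acod1-/- mice 9 were lower and 0 higher, beside 10.8% and 9.13% of all genes, with a median of -2.17. In iWAT 6 of 10 were higher on HFD with a median of 1.16, and the sum was 431.6 to 544.4 CPM in ND-fed, 420.3 to 1070 CPM in HFD-fed WT and 308.5 to 393.5 CPM in Acod1-/- mice. Of 6 monocyte markers, 5 were higher on HFD in eWAT, and in iWAT 2 of 5 tested were higher and 2 lower. The part of either cell type in the S100a8 levels was not tested.

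S100a9 (ENSMUSG00000056071, chr3:90692632-90695721, minus strand), the other calprotectin subunit, was far scarcer than its partner, and its mean was nearly level between the diets in iWAT. It had 3 to 11 reads in ND-fed and 8 to 33 in HFD-fed WT eWAT libraries, where S100a8 had 47 to 200 and 978 to 1953. In iWAT S100a9 had 22 to 29 reads in ND-fed and 6 to 40 in HFD-fed WT libraries. Its mean moved from 0.134 ± 0.0499 to 0.547 ± 0.266 CPM in eWAT on HFD (two-sided exact permutation test, p = 0.0317, adjusted over 8 such tests p = 0.0952, smallest possible p = 0.0159). In an exact permutation test that left out any 1 of ND libraries 2 to 4 or HFD-fed WT libraries 2 to 5, p was 0.0571 to 0.0714. In iWAT it was 0.568 ± 0.128 and 0.561 ± 0.421 CPM (exact permutation test, p = 0.964). Of all reads on the pair of genes, S100a8 took 66.7% to 75.3% in iWAT of ND-fed and 93.2% to 98.0% in HFD-fed WT libraries, which did not overlap. That gave an exact permutation p of 0.0357, the smallest that 3 against 5 libraries allow (adjusted p = 0.0952). In eWAT the share was 90.3% to 94.8% and 97.9% to 99.2%, again without overlap (exact permutation p = 0.0159, the smallest possible, adjusted p = 0.0952). The share is built from the S100a8 reads, whose rise without overlap was given above, so it is no separate support for that rise. For genotype S100a9 was 1.28 ± 2.15 CPM in eWAT Acod1-/- mice against 0.547 ± 0.266 CPM in WT (exact permutation p = 0.754). That mean rests on library 4, at 5.04 CPM and 188 reads, and without it the difference turned from 0.73 to -0.20 CPM (p = 0.508, exact permutation test).

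Most neutrophil transcripts were sparse. Ly6g, the defining surface marker, had 0 reads in 21 of 25 libraries and at most 3 in any, and Ngp, a granule protein, had 0 in 20. Camp and Mpo had 0 reads in 10 libraries each and never more than 23 and 16. Csf3r, the receptor for granulocyte colony-stimulating factor, and Elane, neutrophil elastase, had reads in all 25 libraries, 21 to 282 and 6 to 92. The summed level of 10 neutrophil markers was 2.91 to 51.5 CPM in ND-fed and 3.89 to 8.24 CPM in HFD-fed WT eWAT, and 8.20 to 27.9 and 1.53 to 3.84 CPM in iWAT. The highest of these sums was mostly Ltf (48.4 CPM), which gland epithelium also expresses, and in iWAT of ND-fed mice Cxcr2 had 213 to 467 reads. Of the 2 neutrophil markers that passed the filter in eWAT 1 was higher and 1 lower on HFD, and of 3 in iWAT 2 were lower. The filter takes the mean over all libraries of a depot, so a marker high in ND-fed libraries alone can pass through them. In iWAT Cxcr2 had 0 to 9 reads in HFD-fed WT libraries, and Ltf had 1 to 17 against 2 to 741 on ND. Such falls follow in part from the filter and were not read against the S100a8 rise. For genotype 1 of 2 was lower in eWAT and 0 of 3 were called in iWAT. Their part in the S100a8 and S100a9 levels was not tested. eWAT Acod1-/- library 4, the highest in S100a9, was also the highest of the 25 libraries in Ngp (62 reads), Retnlg (31 reads) and Elane (92 reads). It ranked 2nd of the 25 in Mmp8 (26 reads), 3rd in Ly6g (1 read), 4th in Camp (8 reads) and 6th in Mpo (4 reads). It had 0 reads of Cxcr2 and was 16th in Csf3r (60 reads) and 12th in Ltf (4 reads). Its summed level of the 10 markers was 7.72 CPM, against 11.1 CPM in Acod1-/- library 5, of which 7.50 CPM was Ltf.

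**Figure D3:**
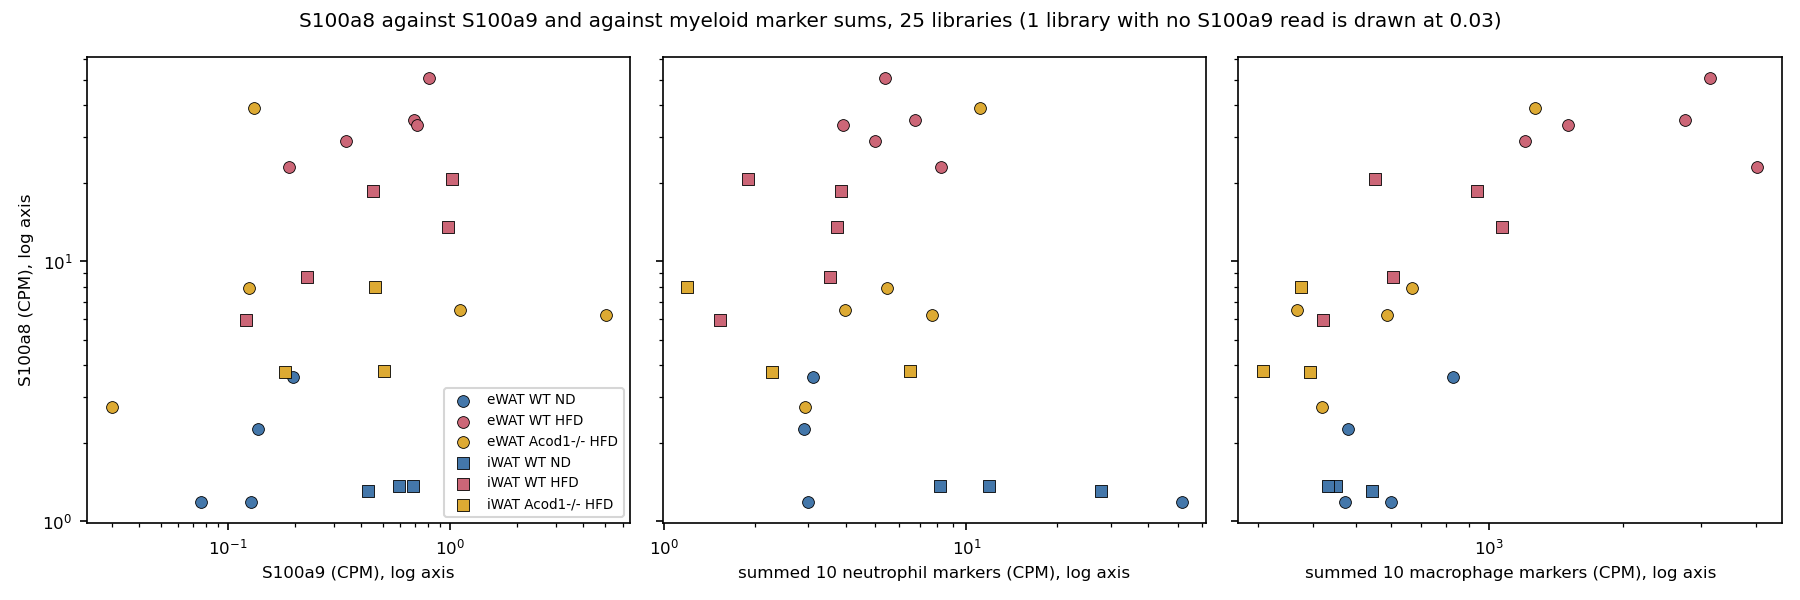
S100a8 CPM (log axis) against S100a9 CPM, the summed CPM of 10 neutrophil markers and the summed CPM of 10 macrophage markers (log axes) in 25 libraries; colours are groups, circles eWAT and squares iWAT. A library with 0 S100a9 reads is drawn at the left edge. In iWAT the HFD-fed WT libraries (5.96 to 20.8 CPM of S100a8) lie above the ND-fed ones (1.31 to 1.37 CPM), and eWAT Acod1-/- library 5 (38.9 CPM of S100a8) lies among the WT HFD points on the macrophage axis.

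S100a4 (metastasin or fibroblast-specific protein), which binds non-muscle myosin in motile fibroblasts and macrophages, was a low transcript. In eWAT it stood at 1.29, 1.02, 0.783 and 0.507 CPM in ND-fed and at 12.7, 2.61, 6.62, 5.78 and 6.51 CPM in HFD-fed WT mice. The groups were apart, and S100a4 rose by 2.92 on the log2 scale (SE 0.54, adjusted p = 0.00139), or 7.58-fold. In iWAT the ND-fed libraries were at 0.658, 2.36 and 1.02 CPM and the HFD-fed WT libraries at 3.59, 2.48, 1.90, 3.52 and 3.55 CPM, which overlapped. That change was 1.19 (SE 0.43, adjusted p = 0.0473), and it was not called without ND library 1 (0.85, adjusted p = 0.151), without ND library 3 (0.99, adjusted p = 0.158) or with the series as a term (1.21, adjusted p = 0.129). In eWAT of Acod1-/- mice S100a4 was at 2.87, 1.42, 0.655, 1.93 and 3.71 CPM, and it fell by 1.69 (SE 0.47, adjusted p = 0.0358). The change was -1.35 (adjusted p = 0.1) without HFD-fed WT library 1, the highest of all, and -2.01 within the first series (adjusted p = 0.0351). In iWAT the knockout libraries at 2.35, 3.33 and 2.07 CPM lay within the WT range (-0.25, SE 0.42, adjusted p = 0.816).

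S100a6 (calcyclin, ENSMUSG00000001025, chr3:90612882-90624181, plus strand), which is abundant in fibroblasts and their progenitors, had the smallest diet adjusted p of the members in both depots. In eWAT it stood at 209.7, 113.8, 167 and 89.2 CPM on ND and at 519.3, 297.5, 572.2, 601 and 508.1 CPM on HFD in WT mice, a rise of 1.79 (SE 0.28, adjusted p = 0.000638), or 3.45-fold. In iWAT it went from 98.0, 84.0 and 68.4 CPM to 461.1, 469.8, 348.5, 532.1 and 383.1 CPM, a rise of 2.43 (SE 0.20, adjusted p = 5.64e-05), or 5.38-fold. Neither pair of groups overlapped. In eWAT of Acod1-/- mice S100a6 was at 269.9, 236.1, 157.9, 286.2 and 325.9 CPM, and it fell by 0.97 (SE 0.26, adjusted p = 0.0286). Library 5 alone reached the lowest WT library. Within the first series the change was -1.08 (adjusted p = 0.0198). In iWAT the knockout libraries were at 311.1, 217.2 and 325.6 CPM, all below the WT libraries, but the change of -0.64 (SE 0.19) had an adjusted p of 0.155. It was -0.77 within the first series (adjusted p = 0.0752), -0.73 without Acod1-/- library 3 (adjusted p = 0.0575). DESeq2 gave -0.62 (adjusted p = 0.0334).

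S100a10 (p11, ENSMUSG00000041959, chr3:93555080-93564643, plus strand) joins annexin A2 at the plasma membrane and has lost calcium binding, and S100a11 (calgizzarin, ENSMUSG00000027907, chr3:93520488-93526287, plus strand) binds annexin A1. On HFD S100a10 rose by 0.81 in eWAT (SE 0.21, adjusted p = 0.00871), from 195.8 to 286.6 CPM across ND-fed libraries to 277.3 to 627.6 CPM, and these ranges overlapped. In iWAT its 3 ND-fed libraries lay between 150.2 and 157.7 CPM and the HFD-fed WT libraries between 304.4 and 463.9 CPM, a rise of 1.31 (SE 0.16, adjusted p = 0.000189). S100a11 rose by 0.97 in eWAT (SE 0.25, adjusted p = 0.00707), from 404.5 to 552.8 CPM to 646.6 to 1303 CPM. In iWAT it rose by 1.92 (SE 0.18, adjusted p = 7.44e-05), from 204.0 to 278.1 CPM to 822.7 to 1065 CPM, without overlap in either depot. Neither gene was called for genotype. In eWAT S100a10 was 416.9 ± 60.8 CPM in Acod1-/- and 431.2 ± 133.9 CPM in WT mice (-0.05, SE 0.20, adjusted p = 0.894). S100a11 was 1048 ± 324.7 and 935.5 ± 275.4 CPM there (0.16, SE 0.23, adjusted p = 0.676). In iWAT the changes were -0.34 for S100a10 (SE 0.15, adjusted p = 0.292) and -0.15 for S100a11 (SE 0.17, adjusted p = 0.698). In eWAT the direction for S100a10 turned without HFD-fed WT library 4 (0.12) or Acod1-/- library 5 (0.0050). That for S100a11 turned without Acod1-/- library 2 of the depot, to -0.05 in eWAT and 0.02 in iWAT.

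The genes of the stromal group thus moved with unequal size, and fibroblast markers moved as well. Of 10 fibroblast and progenitor markers, 9 were higher on HFD in eWAT and 8 in iWAT, with 1 lower in iWAT, at medians of 0.91 and 1.42. In eWAT 5 of the 10 were lower in Acod1-/- mice, and in iWAT 0 were called. Their sum was 1916 to 2443 CPM in ND-fed, 3306 to 6336 CPM in HFD-fed WT and 1885 to 3560 CPM in Acod1-/- eWAT. The part of fibroblasts or macrophages in the stromal genes' levels was not tested. The diet change of S100a4 was larger in eWAT than in iWAT by 1.77 (SE 0.68, adjusted p = 0.067), beside 14% of genes called in that direction. The diet change of S100a11 was smaller in eWAT by 0.92 (SE 0.31, adjusted p = 0.0404), beside 15%. Without iWAT ND library 2 neither was called (1.09, adjusted p = 0.328, and -0.79, adjusted p = 0.131). S100a4 was also not called without eWAT ND library 3 or 4, eWAT HFD-fed WT library 1 or iWAT HFD-fed WT library 3 (1.42 to 1.72, adjusted p = 0.105 to 0.144). For S100a6 the diet difference between depots was -0.61 (SE 0.35, adjusted p = 0.235). For genotype 0 members, beside 0.0% of genes higher and 0.00665% lower, differed between depots, with 662 positive and 862 negative differences at p under 0.05 before adjustment, and 31 and 65 called by DESeq2. S100a4 had the largest such difference, -1.47 (SE 0.66, adjusted p = 0.455).

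**Figure D4:**
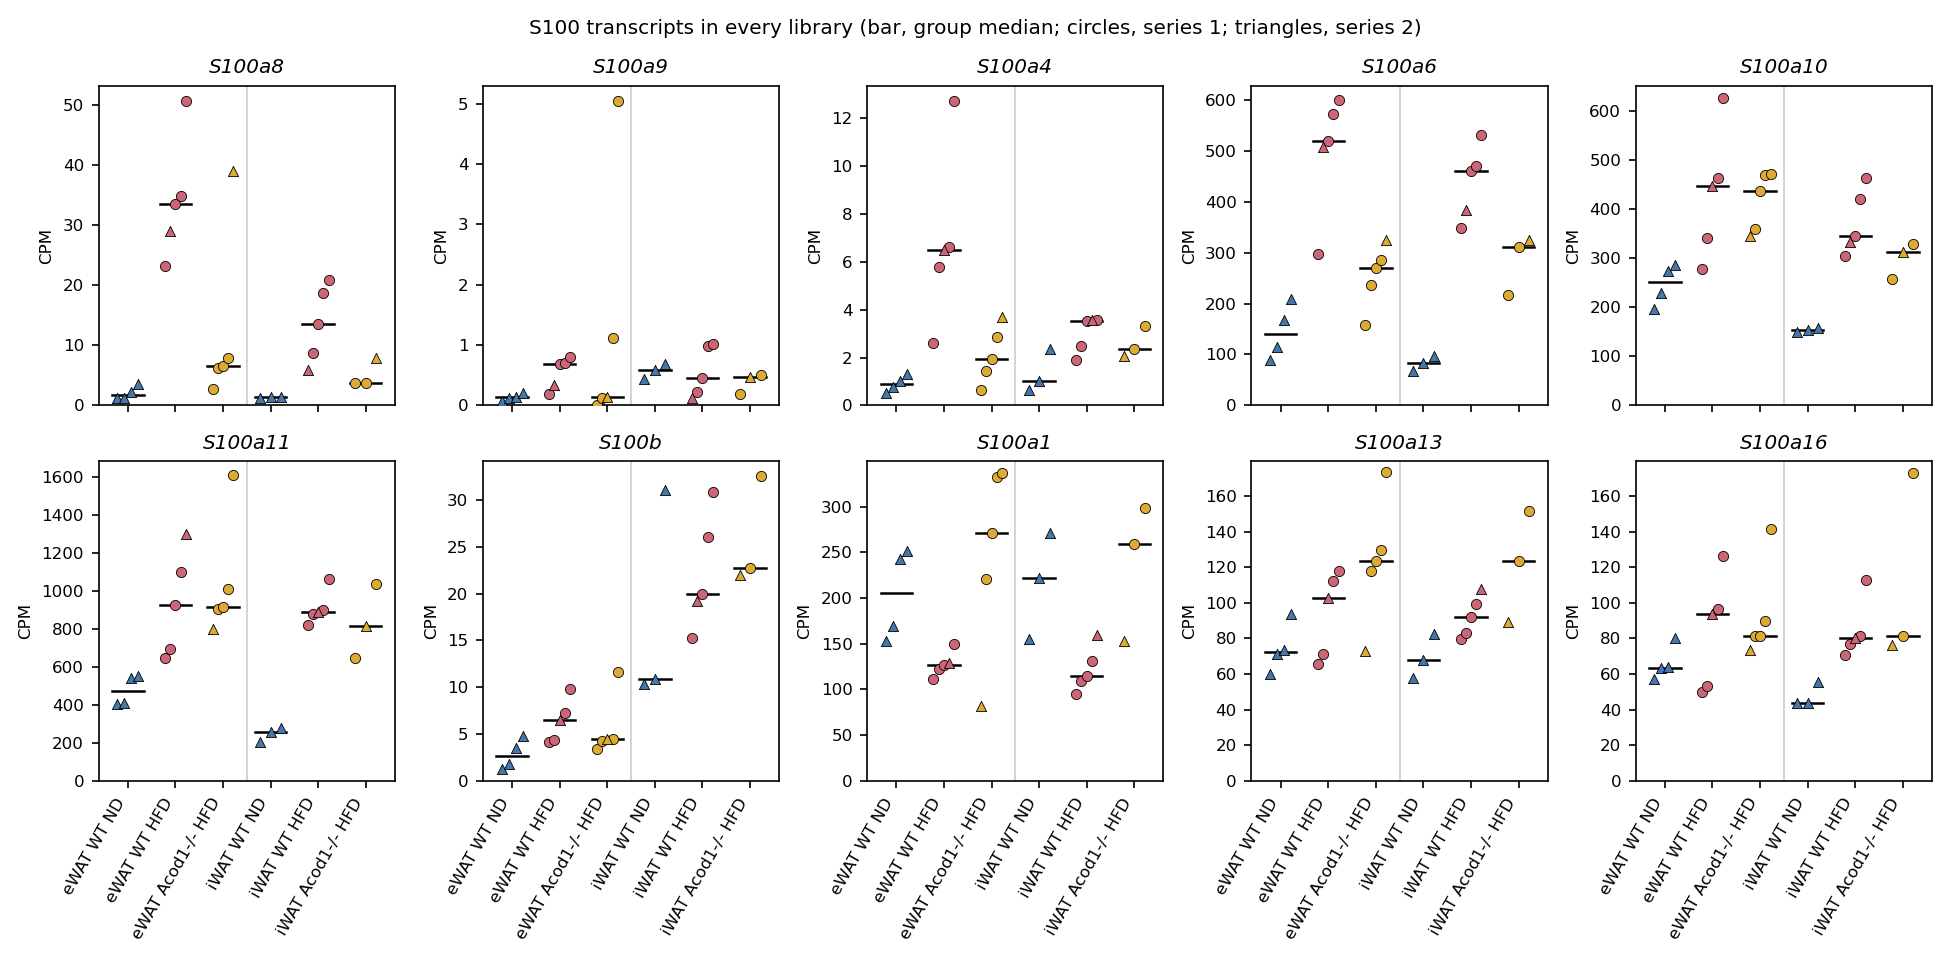
CPM (linear axes from 0, own scale for each gene) of the 10 members in every library, by group; bars are group medians, circles the first and triangles the second series. S100a8, S100a6 and S100a11 separate ND-fed from HFD-fed WT libraries in both depots, while S100a1 is lower in HFD-fed WT than in ND-fed eWAT libraries.

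S100a1, a calcium sensor best known from heart and skeletal muscle, where it acts on calcium release and uptake, was the member that went the other way. In eWAT it stood at 152.7, 169.8, 242.4 and 251.2 CPM on ND and at 122.1, 111.3, 127, 150 and 128.6 CPM on HFD in WT mice. The groups were apart, and S100a1 fell by 0.67 (SE 0.30, adjusted p = 0.0872). This call was lost when any of ND libraries 3 and 4, HFD-fed WT libraries 1, 2, 3 and 5 or Acod1-/- libraries 1 and 4 was left out (-0.67 to -0.56, adjusted p = 0.1 to 0.2). With the series as a term, which rests in part on Acod1-/- library 5, the change was -1.23 (adjusted p = 0.034). The call was also lost with the replicate number as a block (-0.47, adjusted p = 0.235) and without a filter (-0.65, adjusted p = 0.129). In iWAT S100a1 stood at 154.7, 222.3 and 271.8 CPM on ND and at 95.4, 131.3, 108.9, 114.4 and 159.7 CPM on HFD. It fell by 0.80 there (SE 0.24, adjusted p = 0.0218), with overlap through HFD-fed WT library 5. In eWAT of Acod1-/- mice it stood at 221.3, 332.6, 337, 271.2 and 82.3 CPM, of which libraries 1 to 4 exceeded every HFD-fed WT library and library 5 was below all of them. The change was 0.96 (SE 0.29, adjusted p = 0.0473), and 1.17 within the first series (adjusted p = 0.00236). It was not called without HFD-fed WT library 1 (0.94, adjusted p = 0.104) or Acod1-/- library 3 (0.83, adjusted p = 0.115). In iWAT the knockout libraries were at 259.6, 299.2 and 153 CPM, a change of 0.93 (SE 0.24, adjusted p = 0.143). Within the first series it was 1.32 (adjusted p = 0.0153), without Acod1-/- library 3 it was 1.2 (adjusted p = 0.0183), without HFD-fed WT library 5 it was 1.05 (adjusted p = 0.0976), and DESeq2 gave 0.96 (adjusted p = 0.00853).

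Across the 25 libraries the log2 CPM of S100a1 had a Pearson r of -0.666 with S100a8, -0.572 with S100a6 and -0.529 with S100a4, a description only, since the libraries share groups, depots and series. The summed adipocyte markers were 27260 to 40410 CPM in ND-fed, 19350 to 42330 CPM in HFD-fed WT and 34560 to 44970 CPM in Acod1-/- eWAT, and 4 of 8 were called higher for genotype there, while on HFD 1 was higher and 3 were lower. In iWAT 4 of 8 were higher on HFD and 1 lower, with sums of 27500 to 33950 CPM on ND and 39030 to 49450 CPM on HFD, while S100a1 fell. The part of adipocyte content in S100a1 was not tested.

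**Figure D5:**
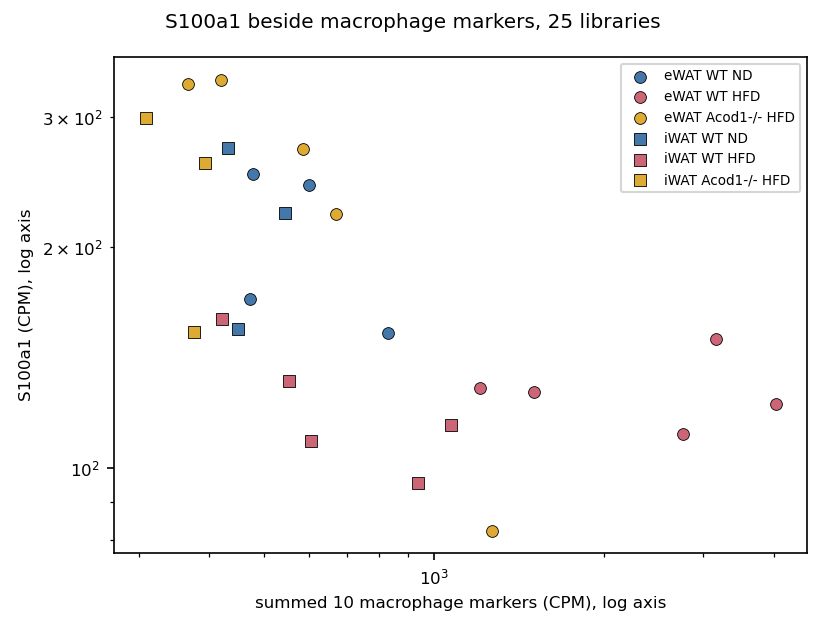
S100a1 CPM against the summed CPM of 10 macrophage markers; log axes, 25 libraries, colours are groups, circles eWAT and squares iWAT. The eWAT Acod1-/- library lowest in S100a1 (82.3 CPM) is the one at 1268 CPM of macrophage markers.

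S100a13, which helps export FGF1 and IL-1 alpha and shares its start region with S100a1, did not share its diet change. Over the 25 libraries its log2 CPM had a Pearson r of 0.509 with that of S100a1, a description only, and for genotype the changes of both genes were positive in both depots. In eWAT it was 74.5 ± 13.9 CPM (n = 4) on ND and 94.0 ± 24.2 CPM (n = 5) on HFD in WT mice, a change of 0.34 (SE 0.24, adjusted p = 0.259). In iWAT it went from 69.3 ± 12.4 to 92.3 ± 11.6 CPM, a rise of 0.44 (SE 0.18, adjusted p = 0.0676), so S100a13 was called higher where S100a1 was called lower. This iWAT rise was not called without ND library 1 or 2 or HFD-fed WT library 2, 4 or 5 (0.32 to 0.43, adjusted p = 0.11 to 0.231) and with the series as a term (0.40, adjusted p = 0.223). In Acod1-/- mice S100a13 was 123.5 ± 35.8 CPM in eWAT (0.39, SE 0.22, adjusted p = 0.259) and 121.4 ± 31.2 CPM in iWAT (0.36, SE 0.18, adjusted p = 0.325). Without Acod1-/- library 5 the eWAT change was 0.53 (adjusted p = 0.0678). Without Acod1-/- library 3 the iWAT change was 0.57 (adjusted p = 0.0531), and within the first series it was 0.64 (adjusted p = 0.0422).

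S100a16 (ENSMUSG00000074457, chr3:90537254-90543151, plus strand), a broadly expressed member linked to adipocyte differentiation, was 66.2 ± 9.77 CPM on ND and 83.9 ± 32.3 CPM on HFD in WT eWAT (0.34, SE 0.27, adjusted p = 0.308). In iWAT its ND-fed libraries were at 43.5, 43.9 and 55.8 CPM and the HFD-fed WT libraries at 70.6, 81.2, 77.1, 112.9 and 80.5 CPM. These groups were apart, with a rise of 0.85 (SE 0.26, adjusted p = 0.0235), and the change was 0.60 with the series as a term (adjusted p = 0.188). Its genotype changes were 0.15 in eWAT (SE 0.25, adjusted p = 0.72) and 0.36 in iWAT (SE 0.25, adjusted p = 0.508). Both turned in direction without Acod1-/- library 2 of the depot, at -0.04 and -0.10. In iWAT S100a16 was at 173.1 CPM in that library, against 81.6 and 76.2 CPM in libraries 1 and 3. That library also had 534.3 CPM of 6 epithelial markers, and their part in S100a16 was not tested.

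S100b, the glial S100 protein that adipocytes also make, was higher in iWAT than in eWAT. In eWAT it stood at 4.83, 1.80, 3.46 and 1.21 CPM on ND, at 4.19, 4.36, 7.21, 9.77 and 6.49 CPM on HFD in WT mice and at 4.49, 11.7, 3.44, 4.21 and 4.47 CPM in Acod1-/- mice. In iWAT the values were 10.3, 10.9 and 31.1 CPM on ND, 26.0, 30.9, 15.28, 20.01 and 19.22 CPM on HFD and 22.7, 32.58 and 22.01 CPM in Acod1-/- mice. Within each diet and genotype every iWAT library exceeded every eWAT library. The log2 difference of eWAT against iWAT was -2.62 in ND-fed WT (SE 0.48, adjusted p = 0.00042), -1.80 in HFD-fed WT (SE 0.40, adjusted p = 0.00517) and -2.19 in HFD-fed Acod1-/- mice (SE 0.44, adjusted p = 0.00883). In these 3 comparisons 14.2%, 7.75% and 1.8% of all genes were called lower in eWAT, and S100b was the only member so called. The calls held in each of the 25 fits that left out 1 library. Sox10, a transcription factor of Schwann cells looked at after its values were seen, had 0 to 38 reads in eWAT (0 to 1.02 CPM) and 15 to 92 in iWAT (0.383 to 2.35 CPM). Its range lay higher in iWAT among ND-fed and among HFD-fed WT mice and overlapped between the depots among Acod1-/- mice, and the part of nerve content in S100b was not tested. On HFD Sox10 had 0 to 2 reads in WT eWAT against 7 to 24 on ND. These are few reads of 1 gene and were not read as a change of Schwann cells. The summed level of 4 brown adipocyte markers was also higher in iWAT, at 80.92 to 1003 CPM against 8.16 to 20.57 CPM in eWAT on ND. It was 20.88 to 49.4 against 9.07 to 18.82 CPM in HFD-fed WT mice. In Acod1-/- mice it was 55.31 to 104.4 against 9.66 to 14.52 CPM, and the part of such cells in S100b was not tested. On HFD S100b rose by 1.18 in eWAT (SE 0.46, adjusted p = 0.0513), with overlapping groups. It was no longer called without ND library 2 (1.03, adjusted p = 0.121), ND library 4 (0.92, adjusted p = 0.132) or HFD-fed WT library 4 (0.98, adjusted p = 0.121), and with the series as a term (1.04, adjusted p = 0.222). In iWAT the change was 0.37 (SE 0.36, adjusted p = 0.433), and 1.07 without ND library 3 (adjusted p = 0.0148). For genotype it was -0.18 in eWAT (SE 0.42, adjusted p = 0.807), turning to 0.02 without HFD-fed WT library 4, and 0.19 in iWAT (SE 0.36, adjusted p = 0.845).

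The genes whose log2 CPM was most like that of S100b over the 25 libraries were Dpt (r = 0.863), Acadl (r = 0.86) and Idh3a (r = 0.835), dermatopontin of the extracellular matrix and enzymes of fatty acid oxidation and the TCA cycle.

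The other depot differences were smaller. In ND-fed WT mice 3 members were higher in eWAT, beside 17.5% of all genes. These were S100a11 (0.95, SE 0.25, adjusted p = 0.00698), S100a10 (0.68, SE 0.21, adjusted p = 0.0234) and S100a6 (0.80, SE 0.28, adjusted p = 0.0397). S100a6 was not called without eWAT ND library 1 (0.56, adjusted p = 0.154), iWAT ND library 2 (0.80, adjusted p = 0.113) or iWAT ND library 3 (0.67, adjusted p = 0.158). In HFD-fed WT mice the fitted eWAT against iWAT differences of these 3 genes were 0.04 for S100a11, 0.21 for S100a10 and 0.19 for S100a6, none of them called (adjusted p = 0.926, 0.479 and 0.639). There 2 members were higher in eWAT, beside 10.8% of all genes: S100a8 (1.34, SE 0.52, adjusted p = 0.0959) and S100a4 (1.19, SE 0.44, adjusted p = 0.0761). The S100a8 call was lost in 12 of the 25 fits that left out 1 library (eWAT ND library 4, eWAT HFD-fed WT libraries 1 to 4, any iWAT ND library, or iWAT HFD-fed WT library 1, 3, 4 or 5), with values of 1.15 to 1.48. The S100a4 call was lost in 4, without eWAT HFD-fed WT library 1 or iWAT HFD-fed WT library 2, 3 or 5, with values of 0.84 to 1.25. In HFD-fed Acod1-/- mice 0 members were higher in eWAT, beside 2.01% of all genes.

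The partners of S100 proteins were followed as a list of 21 genes, 19 of which passed the filter. On HFD 8 were higher and 3 lower in eWAT, and 10 higher and 3 lower in iWAT, with medians of 0.27 and 0.55. Of all genes tested 24.8% were higher and 26.9% lower in eWAT, and 25.9% and 24.2% in iWAT. For genotype 1 was higher and 1 lower in eWAT, beside 9.13% and 10.8% of all genes, and 0 were called in iWAT. Anxa1 (annexin A1) was called in 3 comparisons. It rose on HFD by 1.45 in eWAT (SE 0.24, adjusted p = 0.000759) and by 2.24 in iWAT (SE 0.26, adjusted p = 0.000165), and it fell by 0.58 in eWAT of Acod1-/- mice (SE 0.22, adjusted p = 0.0914). Nckap1, part of the WAVE complex that drives actin branching, was also called in 3. It fell by 0.28 on HFD in eWAT (SE 0.13, adjusted p = 0.0881), rose by 0.55 in iWAT (SE 0.14, adjusted p = 0.00878) and was higher by 0.36 in eWAT of Acod1-/- mice (SE 0.12, adjusted p = 0.0616). Anxa2, which pairs with S100a10, rose by 1.17 in eWAT (SE 0.22, adjusted p = 0.00136) and by 2.09 in iWAT (SE 0.21, adjusted p = 9.41e-05) beside its partner.
Some partners, chosen after their values were seen, went against a member on HFD. Myh9, the non-muscle myosin bound by S100a4, fell by 0.57 in eWAT (SE 0.20, adjusted p = 0.0335) where S100a4 rose. Ager, the receptor RAGE, fell by 1.68 in iWAT (SE 0.52, adjusted p = 0.0249) where S100a8 rose, and was -0.89 in eWAT (adjusted p = 0.26). Ppp5c, a phosphatase that S100 proteins bind, fell by 0.39 in eWAT (adjusted p = 0.0149) and by 0.56 in iWAT (adjusted p = 0.00156), and Trp53 fell by 0.66 in iWAT (adjusted p = 0.00243) and rose by 0.34 in eWAT (adjusted p = 0.0491). Tlr4 rose by 0.58 in eWAT (SE 0.22, adjusted p = 0.0489) and was 0.43 in iWAT (SE 0.23, adjusted p = 0.151).

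Over the 25 libraries the highest Pearson r between members was 0.913 for S100a10 and S100a11, both of the stromal group. Next came 0.873 for S100a8 and S100a6, of the myeloid and stromal groups. The genes most like a member, named by this r with no test, were Lctl (0.953), Saa3 (0.946), an acute-phase apolipoprotein, and Pea15a (0.938) for S100a8, and Ngdn (0.688), E130309D02Rik (0.683) and Cacybp (0.676) for S100a9. They were Snrnp25 (0.886), Tmem19 (0.885) and Slc41a2 (0.865) for S100a4, and Nek6 (0.959), Fstl1 (0.948) and Atp1a4 (0.941) for S100a6. For S100a10 they were Myl6 (0.945), Txndc17 (0.941) and Tm2d2 (0.936), and for S100a11 Rheb (0.973), Hebp1 (0.968) and Ltbr (0.964). S100a1 was most like Bcat2 (0.912), the mitochondrial branched-chain aminotransferase, Hsd17b10 (0.888) and Nprl2 (0.867). S100a13 was most like Ndufa7 (0.935), a respiratory complex I subunit, Mrpl51 (0.935) and Sec62 (0.926), and S100a16 like Copz2 (0.895), Ppp2ca (0.881) and Pigyl (0.873). These libraries share groups, depots and series, and r was taken over 10578 genes that averaged 5 CPM or more.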

How the data were processed

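Whole adipose tissue was lysed and polyadenylated RNA was sequenced with a directional kit. Per the study's methods reads were trimmed with cutadapt and aligned with STAR to mm10 (GRCm38). The counting program and its use of strand are not given in the sources used here. The authors deposited, for each library, counts per gene and FPKM, which followed counts and cDNA length within 0.0005 and were not otherwise used. Closing rows of reads assigned to no gene (8.483% to 13.402% of a library) were left out. No pair of libraries agreed within sampling noise (lowest chi-square per degree of freedom 33.7). The labels do not tie each library to an animal, so p-values measure the spread between these samples.

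Counts were normalized with TMM and fitted with edgeR's quasi-likelihood test (edgeR 4.0.16, limma 3.58.1, R 4.3.3), with all 3 groups of a depot in the fit and all 6 groups for depot comparisons. Genes that averaged 1 CPM or more were tested (14936 in eWAT, 14801 in iWAT, 15034 over both), and calls were made at a Benjamini-Hochberg adjusted p under 0.1. TPM came from counts and the deposited cDNA lengths. Exact permutation tests (scipy 1.17.1, Python 3.11.15) served S100a9 and its share, and were chosen after the data were seen. The main edgeR test was run on simulated counts for diet in each depot and for the depot difference of diet. The other comparisons and the alternatives were not simulated. Alternatives were no filter, 1 CPM in every library, DESeq2 1.42.0 and its size factors, a threshold of 0.05, a block or series term, only the groups compared, first-series libraries only, and leaving out each library. The 10 members were always named, and of their partners those called in 3 comparisons. Members, partners and marker lists were chosen with earlier results of these data known, and 1 marker list, of Schwann cells, is not reported here apart from Sox10.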

Additional observations from a re-analysis of the deposited data

Results flagged for a closer look

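Each gene was looked at for single libraries far from the rest of their group in the 4 groups of 4 or 5 libraries, and 6 of 40 gene and group pairs had one. Chance alone gives such a gap in some groups, about 1 in 20. Of these, 5 were in eWAT of Acod1-/- mice. S100a8 was 38.9 CPM in library 5, against 7.88 CPM in the next. S100a9 was 5.04 CPM in library 4, against 1.11 CPM. Library 2 stood apart in S100a11 (1613 against 1012 CPM), S100b (11.7 against 4.49 CPM) and S100a16 (141.3 against 89.9 CPM), and this library also had the highest mitochondrial share of all 25 (13.212%). In iWAT of HFD-fed WT mice S100a16 was 112.9 CPM in library 4, against 81.2 CPM in the next.

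The diet change differed between depots, by the test of the difference itself, for S100a4 (1.77 on the log2 scale, larger in eWAT) and S100a11 (-0.92, smaller in eWAT).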

How the results depend on the processing

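The members' fitted log2 fold changes were followed for diet and genotype, and for comparisons between depots only where the main edgeR p was under 0.05. Under the alternatives 1040 of the refitted values kept their direction and side of the threshold, 65 lost a call, 20 gained one and 8 turned in direction. The number of members called moved from 8 to 5 for diet in iWAT with the series as a term. For genotype in iWAT it moved from 0 to 3 with DESeq2 and to 4 with first-series libraries only. For the depot difference of diet it was 1 in place of 2 without a filter, with 1 CPM in every library and at a threshold of 0.05, and for eWAT against iWAT in HFD-fed WT mice 1 in place of 3 without a filter and at a threshold of 0.05. Leaving out each library in turn gave 5 to 7 members for diet in eWAT, 6 to 8 in iWAT, 1 to 5 for genotype in eWAT, 0 to 4 in iWAT, 0 to 3 for the depot difference of diet, 0 for that of genotype, and 3 to 4, 1 to 3 and 1 for the depots in ND-fed WT, HFD-fed WT and Acod1-/- mice. The cause was not tested.

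Directions turned only for values that were not called. For genotype in eWAT, S100a10 was 0.0092 with first-series libraries only, and leaving out 1 library gave -0.18 to 0.12 for S100a10, -0.046 to 0.31 for S100a11, -0.63 to 0.019 for S100b and -0.040 to 0.35 for S100a16. In iWAT it gave -0.30 to 0.024 for S100a11 and -0.10 to 0.60 for S100a16. The S100a9 difference was -0.20 to 1.06 CPM for genotype in eWAT and -0.12 to 0.10 CPM for diet in iWAT, where 6 values turned in direction between them.

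Of 54 pairs of same-numbered libraries from different groups, 21 had r over 0.1 in their deviations (range -0.336 to 0.492). Between depots r was 0.346, -0.055, 0.0374, 0.492 and 0.105 for HFD-fed WT libraries 1 to 5. It was 0.23, 0.0361 and 0.132 for ND-fed and 0.0421, 0.0857 and -0.0906 for Acod1-/- libraries 1 to 3. Differently numbered pairs were not compared, so this check cannot decide whether a number marks the same mouse. The depot comparisons treated all libraries as independent. With the replicate number as a block 5 members were called for diet in eWAT, 6 in iWAT, 4 and 0 for genotype, and 2 for the depots in HFD-fed WT mice. Depth limits S100a9 most, with 0 to 188 reads in a library.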

Other observations

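Of the other S100 genes, S100a2, S100a5 and S100z were under 1 CPM in all 25 libraries, and S100a7a in 24. S100a14, an epithelial gene, was under 1 CPM in 20 and reached 116.9 CPM in iWAT Acod1-/- library 2, where the sum of 6 epithelial markers was 534.3 CPM. S100pbp, whose product binds S100P, fell on HFD by 0.59 in eWAT (SE 0.17, adjusted p = 0.0128) and by 0.82 in iWAT (SE 0.18, adjusted p = 0.00392).

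Calls in other marker lists are given beside the share of all genes. On HFD in eWAT 4 of 5 endothelial, 3 of 5 mesothelial, 5 of 6 epithelial and 5 of 5 red blood cell markers tested were lower, beside 26.9% of all genes. There 1 of 6 lymphocyte, 1 of 4 skeletal muscle and 1 of 3 brown adipocyte markers were higher, beside 24.8%, and 1 brown adipocyte marker was lower. A single marker called in a list was near those shares. On HFD in iWAT 5 of 5 endothelial markers were higher. There 6 of 6 lymphocyte, 5 of 5 skeletal muscle and 4 of 4 brown adipocyte markers were lower. So were 1 of 6 epithelial and 1 of 5 red blood cell markers, while 0 of 5 mesothelial markers passed the filter. The summed muscle level was 7125 CPM in ND library 1. ND library 2 lay below every HFD-fed WT library, and ND library 3 lay within their range. The lymphocyte markers were high in the ND-fed libraries alone, through which they can pass the filter. Whether diet or the tissue sampled gave the muscle and lymphocyte falls was not tested. For genotype in eWAT 1 of 6 monocyte, 1 of 6 lymphocyte and 1 of 3 brown adipocyte markers were lower, beside 10.8% of all genes. In iWAT 0 markers of these lists and 0.0% of all genes were called for genotype.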
